A study of Homo sapiens with 16 samples.

Results

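The regions described here are the constitutive H3K4me3 regions of MCF-10A cells, the stretches of the genome that held a peak in every library whether or not octanoic acid (OA) was added. Peaks of 3 vehicle and 3 OA libraries were merged wherever they shared at least 1 bp, and a region was kept when all 6 libraries had a peak in it. Of 28846 merged regions, 11071 met this condition, and 9358 of these lay within 1 kb of the annotated start site of a protein-coding gene, covering the promoters of 10604 genes. For each region and library, the covered length (the bases under peaks, in bp) measured breadth, and the percentile of its strongest peak among all peaks of that library, ordered by the peak caller's −log10 p, measured strength. MCF-10A is an immortalised, non-tumorigenic human breast epithelial line. Cells in the OA group received 5 mM OA for 24 h and cells in the vehicle group received PBS for 24 h, with 3 libraries in each group from triplicate cultures of this line. The 16 libraries of the series also held 2 H3K4me3 libraries and 2 IgG libraries of untreated cells, and 3 vehicle and 3 OA libraries for H3K27me3. All 16 were made by CUT&RUN, in which an antibody directs a nuclease to cut and release the DNA around the mark, so that the released fragments pile up where the mark is.

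H3K4me3, the trimethylated form of lysine 4 of histone H3, marks the nucleosomes around the start sites of active and poised genes. It is written by the SETD1 and MLL (KMT2) enzymes of the COMPASS complexes, with S-adenosylmethionine as the methyl donor, and erased mainly by the KDM5 demethylases, which need α-ketoglutarate. The mark usually covers the first nucleosomes downstream of the start site and a shorter stretch upstream, and promoters of cell identity genes and of highly transcribed genes tend to carry unusually long domains. OA is a saturated medium-chain fatty acid that can enter mitochondria for oxidation without the carnitine shuttle. The question put to the vehicle and OA libraries was which promoters became wider, narrower, stronger or weaker under the fatty acid while keeping the mark throughout.

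Promoter sequences are shown for 6 genes whose regions carry the results below, as the 250 bases 5′ of the start site on the gene's own strand, from RefSeq (GRCh38.p14). The promoters of NEK2 (chr1:211675622-211675871, minus strand), CENPW (chr6:126339865-126340114, plus strand) and SHCBP1 (chr16:46621380-46621629, minus strand) were the only ones with a called loss of peak height, and each held the CCAAT box, in capitals on either strand. RPS12 (chr6:132814319-132814568, plus strand) stands for the ribosomal protein promoters, which were shorter relative to their library under OA, and its CG dinucleotides are in capitals. VLDLR (chr9:2621537-2621786, plus strand) was wider and taller, with its CG dinucleotides in capitals, and CHAC1 (chr15:40953221-40953470, plus strand) was wider, with CCAAT and the ATF4-type element TGATGNAA, both read on either strand, in capitals.
NEK2: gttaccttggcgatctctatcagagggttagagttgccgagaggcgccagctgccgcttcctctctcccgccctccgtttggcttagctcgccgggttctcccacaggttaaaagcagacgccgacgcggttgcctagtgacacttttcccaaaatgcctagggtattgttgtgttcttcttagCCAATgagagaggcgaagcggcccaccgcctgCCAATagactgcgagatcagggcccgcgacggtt
CENPW: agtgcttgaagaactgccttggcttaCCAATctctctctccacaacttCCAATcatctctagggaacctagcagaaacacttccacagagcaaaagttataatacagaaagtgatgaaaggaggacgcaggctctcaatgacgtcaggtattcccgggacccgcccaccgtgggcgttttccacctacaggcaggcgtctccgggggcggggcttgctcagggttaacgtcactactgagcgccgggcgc
SHCBP1: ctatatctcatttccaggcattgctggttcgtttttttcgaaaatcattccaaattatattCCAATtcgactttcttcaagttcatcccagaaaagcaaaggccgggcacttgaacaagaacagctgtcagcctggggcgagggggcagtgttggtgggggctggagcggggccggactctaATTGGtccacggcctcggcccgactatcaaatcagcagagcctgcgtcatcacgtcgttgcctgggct
RPS12: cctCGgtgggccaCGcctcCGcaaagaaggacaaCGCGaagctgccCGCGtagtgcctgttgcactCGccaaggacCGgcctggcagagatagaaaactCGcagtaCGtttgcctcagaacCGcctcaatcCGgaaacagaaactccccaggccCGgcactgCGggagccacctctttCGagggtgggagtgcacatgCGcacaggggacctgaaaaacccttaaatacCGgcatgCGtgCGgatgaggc
VLDLR: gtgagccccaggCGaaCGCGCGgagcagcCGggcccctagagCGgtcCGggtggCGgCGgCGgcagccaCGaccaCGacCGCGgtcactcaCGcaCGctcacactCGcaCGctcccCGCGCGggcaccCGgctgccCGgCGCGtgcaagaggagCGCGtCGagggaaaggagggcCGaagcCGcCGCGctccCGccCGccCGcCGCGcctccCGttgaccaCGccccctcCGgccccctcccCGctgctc
CHAC1: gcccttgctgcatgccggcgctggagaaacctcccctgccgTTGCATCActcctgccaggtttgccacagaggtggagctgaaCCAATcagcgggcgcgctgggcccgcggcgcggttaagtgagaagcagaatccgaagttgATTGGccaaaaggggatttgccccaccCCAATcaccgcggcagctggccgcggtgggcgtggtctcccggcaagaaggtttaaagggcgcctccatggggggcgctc

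The libraries differed in strength within each group before any effect of OA was considered. Peaks per library on the main chromosomes numbered 16086 to 21033, and the constitutive regions held 74.7 to 92.9% of all bases under peaks. Read totals were not given. The median height at the summit, in reads solved from the caller's fold enrichment and −log10 p, was 82, 120 and 33 reads in vehicle 1, 2 and 3 and 40, 92 and 100 reads in OA 1, 2 and 3. Vehicle 3 and OA 1 thus had the lowest summits, and they also had the shortest regions. They are called the low-summit libraries below. The lowest recurrent background at peaks was 0.45 reads in vehicle 3, the lowest of the 6 libraries, but 0.853 reads in OA 1, the highest. Median fold enrichment was lowest in OA 1, at 7.18. Whether few reads or weak enrichment lowered the summits was not tested. Median covered length was 1290, 1304 and 834 bp in the vehicle libraries and 1080, 1309 and 1382 bp in the OA libraries, or 1143 ± 267 bp against 1257 ± 158 bp (SD, n = 3 each). The groups overlapped, and the difference of 114 bp did not exceed the replicate spread (exact permutation test, two-sided, p = 0.5, with 0.1 the smallest possible). It reversed to −40 bp without vehicle 3. The extension of the mark from the start site was measured at 7757 promoter regions that held the start of a single gene. Its median was 286, 289 and 197 bp upstream in vehicle and 222, 325 and 394 bp in OA (exact permutation p = 0.4), and 979, 979 and 654 bp downstream in vehicle against 861, 965 and 963 bp in OA (exact permutation p = 1). Because of the low-summit libraries, each length below is given as called and, where stated, centred on the median log2 length of its own library. The OA libraries had a median log2 length 0.16 above the vehicle libraries, so as-called comparisons start from that offset.

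**Figure D1:**
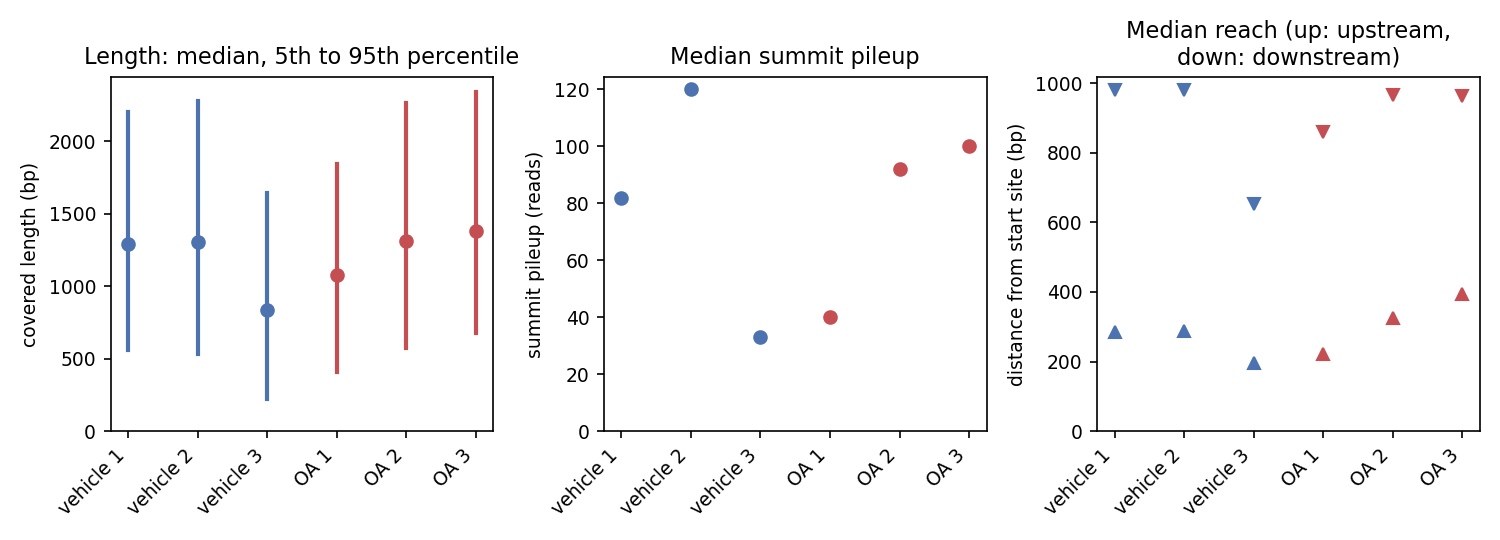
Per library, the covered length of the 11071 constitutive regions in bp (point, median; line, 5th to 95th percentile), the median summit height in reads, and the median distance in bp from the start site to the outer peak edge upstream (upward triangles) and downstream (downward triangles), vehicle in blue and OA in red. Vehicle 3, at 834 bp and 33 reads, and OA 1, at 1080 bp and 40 reads, had the shortest and lowest peaks of their groups.

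Markers of the cells matched the label in most respects. Of 10 basal epithelial markers, 7 had a constitutive region, among them KRT5, KRT17, CDH3 and EGFR. The start of the keratin gene KRT14 had peaks of 881 and 747 bp in vehicle 1 and 2 and none in vehicle 3 or in any OA library. The canonical start of TP63, the basal lineage factor, had no peak in any library, and that of E-cadherin (CDH1) lacked a peak in vehicle 3 alone. The immune markers PTPRC, CD3E and SPI1 had no peak in any library. Of 3 endothelial markers, KDR had peaks in 1 vehicle and 3 OA libraries, and of 4 fibroblast markers, COL1A1 had peaks in 2 libraries of each group. Of 4 luminal hormone-responsive markers, FOXA1 and GATA3 had a constitutive region. The part of these markers in the results below was not tested.

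No constitutive region passed the test for a change in length. In limma on log2 covered length, 0 of 11071 regions (0%) had an adjusted p under 0.05, the lowest being 1.00, and 284 had an unadjusted p under 0.05, 265 of them longer and 19 shorter in OA. After centring, limma again called 0 regions, with 900 at an unadjusted p under 0.05 and a lowest adjusted p of 0.0715. Percentile rank gave the same count, 0 regions (0%) in limma, with 1270 at an unadjusted p under 0.05, 814 of them higher in OA, and a lowest adjusted p of 0.12. Promoters are therefore described by whether the 3 OA values lay entirely on one side of the 3 vehicle values, which is a description and not a test.

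As called, 740 regions (6.68% of 11071) were longer in every OA library than in every vehicle library and 59 (0.533%) were shorter. After centring, the split turned over, with 841 regions (7.6%) longer and 974 (8.8%) shorter. Regions that were longer on both scales numbered 442 (3.99%), and 339 of them were promoters, called wider promoters below. Those that were shorter on both scales numbered 52 (0.47%), and 46 were promoters, called narrower promoters. The condition had a sharp edge: the least separated regions inside it were at GRK3 (as called 1094, 1389 and 864 bp against 1390, 1694 and 1798 bp in OA) and VRK1 (1149, 1247 and 1130 bp against 950, 1127 and 1128 bp), while UBE2J2 and CAMK2D fell outside through ties at 1456 and 2442 bp. The number of narrower promoters rose to 1022 without vehicle 3, and the number of wider promoters rose to 1132 without OA 1.

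Wider promoters were short in vehicle, which follows in part from their choice by length. In bulk libraries such as these, a mark gained in some of the cells and a mark gained in every cell cannot be told apart. Their median length went from 779 bp in vehicle to 1307 bp in OA, while the median of all constitutive promoters went from 1192 to 1310 bp. The largest separation was at MISP3 (chr19:14072113-14075179), where covered length was 755, 644 and 160 bp in vehicle and 1614, 2012 and 2592 bp in OA (log2 difference 2.25 ± 0.58 SE, limma adjusted p = 1.00). KRBA2, which encodes a KRAB-domain protein (chr17:8376110-8377029), measured 312, 235 and 188 bp in vehicle and 710, 666 and 916 bp in OA (log2 difference 1.66 ± 0.26 SE). MAF, a basic leucine zipper transcription factor (chr16:79599512-79601750), measured 950, 854 and 186 bp in vehicle and 1590, 1810 and 2119 bp in OA (log2 difference 1.78 ± 0.60 SE). In all of these the shortest OA peak was longer than the longest vehicle peak, and vehicle 3 was the shortest library. CMPK2, a mitochondrial nucleotide kinase induced by interferon, measured 371, 242 and 148 bp in vehicle and 736, 923 and 1017 bp in OA. SPX, the gene of the peptide hormone spexin, measured 738, 517 and 478 bp in vehicle and 1289, 1498 and 1355 bp in OA, with the region 425 bp from the annotated start. FBXO6, a ubiquitin ligase subunit that binds glycoproteins, measured 503, 534 and 145 bp against 927, 1024 and 1031 bp. Relative to their library, the summits of all 3 were also taller in every OA library, although the reads themselves overlapped, as at FBXO6 with 23, 29 and 8 reads in vehicle and 21, 37 and 70 reads in OA. The other promoters among the 10 most separated were CCDC69, CCDC85A, ZNF385B and HTATIP2, the last encoding an oxidoreductase also known as TIP30, at 589, 530 and 146 bp in vehicle and 970, 1001 and 1190 bp in OA. Over the 10, the log2 difference in length ran from 1.06 at ZNF385B to 2.25 at MISP3, and without vehicle 3 the MISP3 difference was 1.54.

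Narrower promoters had an ordinary length in vehicle and a short one in OA, which also follows in part from their choice by length. Their median length went from 1230 bp in vehicle to 945 bp in OA. RAD54L, ESCO2, DNA2 and PTTG1, genes of DNA repair and chromosome segregation, were among the 10 most separated. RAD54L, a motor protein of homologous recombination (chr1:46247582-46248658), measured 1067, 939 and 647 bp in vehicle and 225, 428 and 371 bp in OA (log2 difference −1.39 ± 0.32 SE, limma adjusted p = 1.00). ESCO2, the acetyltransferase that establishes cohesion between sister chromatids, measured 1026, 1029 and 966 bp in vehicle and 341, 788 and 606 bp in OA (log2 difference −0.88 ± 0.32 SE). DNA2, a nuclease and helicase that processes replication intermediates, measured 1090, 1201 and 1067 bp in vehicle and 733, 857 and 844 bp in OA (log2 difference −0.47 ± 0.18 SE). At each of these genes every OA library was below every vehicle library, also in rank: the RAD54L promoter was at percentiles 69.7, 78.3 and 51.9 with vehicle and 5.9, 24.8 and 20.5 with OA. PTTG1, which encodes securin, the inhibitor of separase, measured 749, 793 and 662 bp in vehicle and 388, 583 and 566 bp in OA, but its percentiles overlapped. The widest separation was at ZFP36L1 (chr14:68789604-68793090), an RNA-binding protein that promotes decay of AU-rich transcripts, with 2033, 3443 and 1906 bp in vehicle and 543, 638 and 1161 bp in OA. This region was split into 4, 1 and 3 peaks in vehicle and 1, 2 and 2 in OA, and covered length leaves out the gaps. Its downstream edge overlapped between groups, at 3463, 3457 and 2753 bp in vehicle and 3071, 2627 and 3154 bp in OA. RGMB, a co-receptor for bone morphogenetic proteins, measured 1288, 1594 and 1239 bp in vehicle and 763, 184 and 878 bp in OA. Its lowest value came from OA 2, which was not a low-summit library, whereas the lowest value at ZFP36L1, RAD54L, ESCO2 and DNA2 came from OA 1. TNRC18, HMGB1 (a non-histone chromatin protein), RPS12 (a protein of the small ribosomal subunit) and P4HA1, the catalytic subunit of collagen prolyl 4-hydroxylase, completed the shorter set. RPS12 measured 2249, 3019 and 2240 bp in vehicle and 1513, 1759 and 1911 bp in OA. Its region held 3, 1 and 1 peaks in vehicle and 2 in each OA library, and the gaps between them are left out of the length. P4HA1 measured 1475, 1847 and 1575 bp in vehicle and 1089, 1208 and 1275 bp in OA while its percentile was higher in every OA library, 82.2, 90.2 and 91.0 against 70.4, 79.3 and 74.0.

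**Figure D2:**
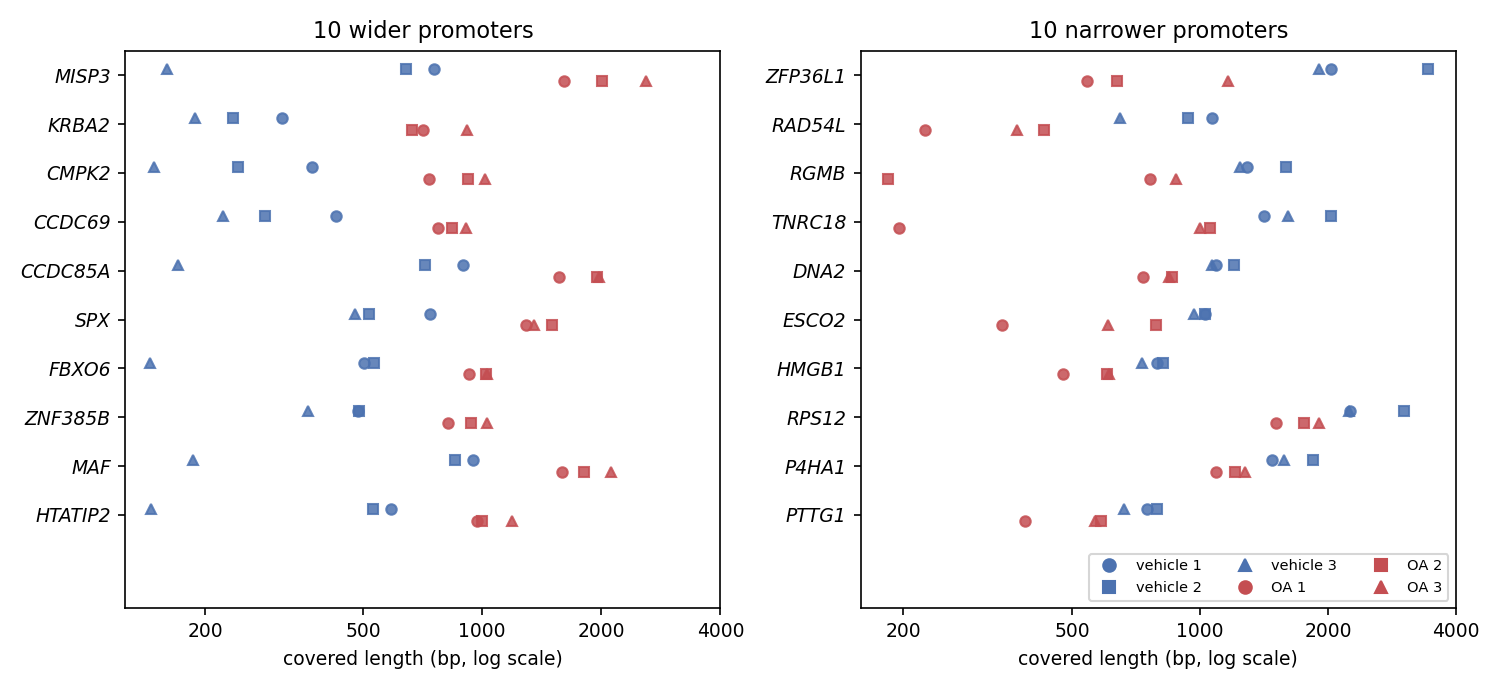
Covered length in bp on a log axis for the 10 wider and the 10 narrower promoters with the largest separation, each symbol 1 library, vehicle in blue and OA in red. By the rule that chose them the colours do not overlap at any gene, and vehicle 3 (blue triangle) is the shortest library at all 10 wider promoters.

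At the wider promoters the downstream edge moved farther than the upstream edge. Among 291 wider promoters with a single start, the median outer edge moved by 157 bp upstream and by 301 bp downstream, and among 34 narrower promoters it moved by −36.5 bp upstream and −202 bp downstream. Across all 7757 promoters of this kind, the upstream edge lay farther out in every OA library at 906 (11.7%) and nearer at 192 (2.48%), and the downstream edge lay farther out at 597 (7.7%) and nearer at 107 (1.38%). Of the wider promoters, 121 were extended upstream and 162 downstream in every OA library, and of the narrower ones 18 were shorter downstream, counts that follow in part from the choice of regions by length. At PPP1R15A the downstream edge was at 1127, 1019 and 938 bp in vehicle and at 2343, 2723 and 2882 bp in OA. The upstream edge there lay inside the gene in all 3 OA libraries, so the longer stretch was entirely downstream of the start site.

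**Figure D3:**
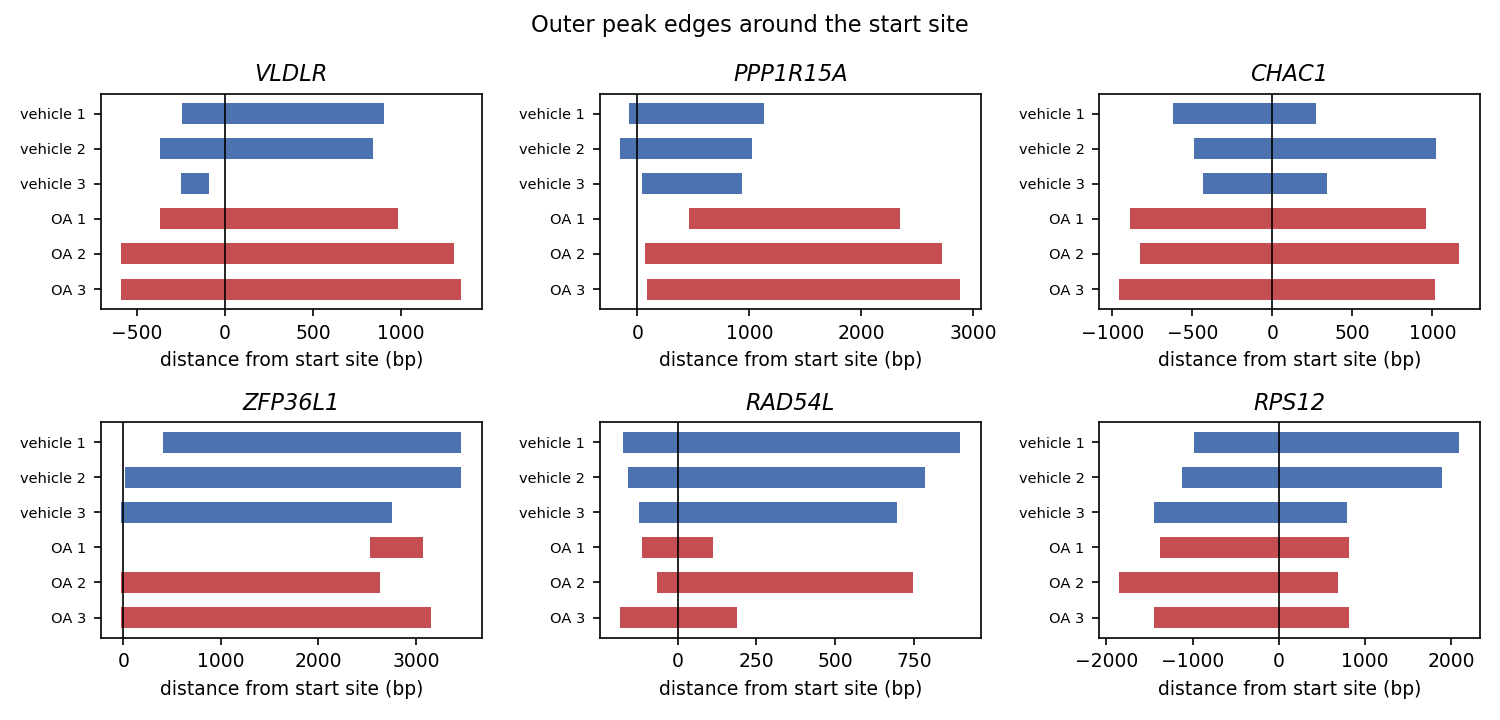
Outer edges of the peaks around the start site (0, vertical line; positive is the direction of transcription; distance in bp) at 3 wider and 3 narrower promoters, 1 bar per library, with gaps between peaks of the same library not drawn. PPP1R15A reached past 2343 bp downstream in every OA library, and at ZFP36L1 the OA 1 library kept only a 543 bp peak far downstream.

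Length and strength moved together only loosely. Across the 11071 regions, the difference in centred log2 length and the difference in percentile had a Pearson r of 0.427 and a Spearman rho of 0.370, given as a description since both come from the same peaks and libraries. Rank was higher in every OA library at 1038 regions (9.38%) and lower at 786 (7.1%), but this balance depended on the lists ranked. With the same number of top peaks in each library it turned to 950 higher and 1112 lower, and with fold enrichment in place of −log10 p to 595 higher and 1071 lower. Of the 339 wider promoters, 81 were also ranked higher in every OA library and 5 were ranked lower. Of the 46 narrower ones, 13 were ranked lower and 3 higher.

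**Figure D4:**
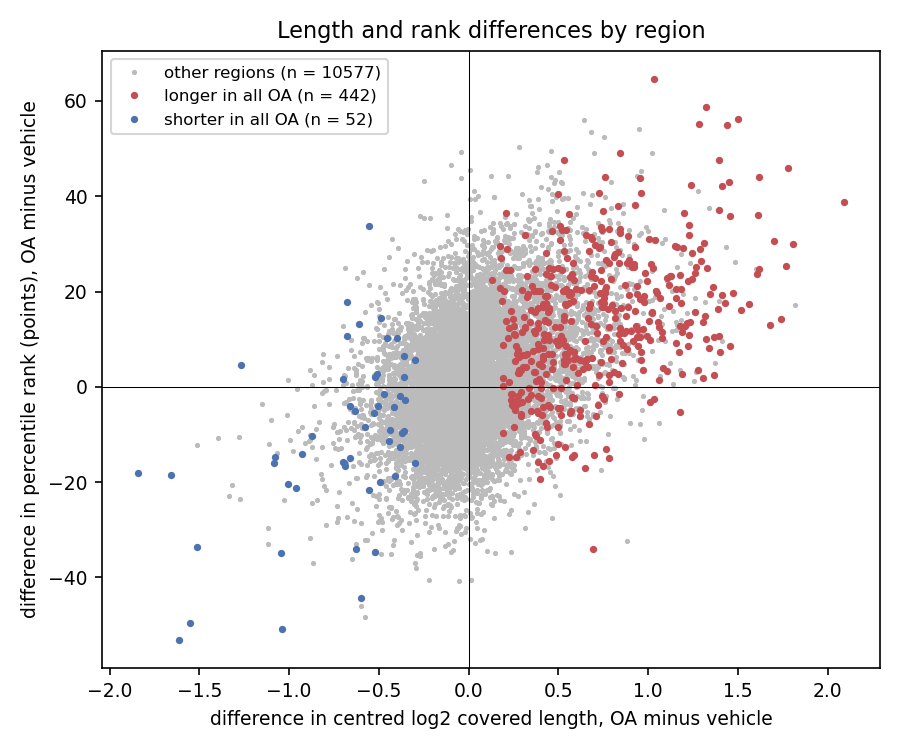
Each point is 1 of 11071 constitutive regions, by the OA minus vehicle difference in centred log2 covered length (x) and in percentile rank in points (y), with the 442 regions longer in every OA library in red, the 52 shorter ones in blue and the other 10577 in grey. The cloud slopes upward with r = 0.427, and red and blue points occur on both sides of 0 in rank.

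The 5 promoters most separated upward in rank were those of CLGN, ATP8B2, NRG2, KRBA2 and LOX, and the 5 most separated downward were those of ESCO2, SPC25, ZWINT, RGMB and PBK. CLGN, a chaperone of the endoplasmic reticulum, stood at percentiles 36.9, 12.9 and 12.2 in the vehicle libraries and 89.6, 81.9 and 84.4 in the OA libraries (difference 64.6 ± 8.0 SE, limma adjusted p = 0.134). ATP8B2, a phospholipid flippase, was at 31.6, 31.4 and 27.8 in vehicle and 84.97, 92.5 and 78.7 in OA (difference 55.1 ± 6.0 SE, limma adjusted p = 0.12). NRG2, a neuregulin that activates ERBB receptors, was at 37.95, 34.0 and 18.4 against 80.8, 85.01 and 89.1. In these promoters the mark went from the lower part of the library to the upper part without any overlap between groups. LOX, which cross-links collagen and elastin, was at percentiles 51.6, 41.1 and 36.5 with vehicle and 92.3, 87.3 and 97.1 with OA, although its length overlapped at 1463, 1910 and 1330 bp in vehicle and 1453, 1930 and 1693 bp in OA. KRBA2 completed the 5 and was also among the wider promoters. On the falling side, SPC25, a subunit of the NDC80 complex that binds microtubules at kinetochores, was at percentiles 66.6, 76.8 and 55.2 with vehicle and 21.4, 16.2 and 16.3 with OA (difference −48.2 ± 7.0 SE, limma adjusted p = 0.134). ZWINT, another kinetochore protein, was at 76.0, 78.0 and 88.5 against 16.9, 44.2 and 43.8. PBK, a mitotic kinase, was at 80.3, 83.2 and 87.5 against 49.2, 46.7 and 50.01 with lengths that overlapped (1073, 1105 and 926 bp in vehicle, 658, 1127 and 840 bp in OA). ESCO2 and RGMB were the remaining members of the 5.

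Summit height, the alternative measure of strength, gave calls where length and rank gave none. In limma on log2 reads at the summit, centred on each library's median, 53 regions (0.479%) were higher and 3 (0.0271%) lower in OA at an adjusted p under 0.05. The 3 lower regions were promoters of mitotic genes. NEK2, a kinase of centrosome separation (chr1:211674723-211675962), had 182, 403 and 87 reads in vehicle and 45, 82 and 72 reads in OA (log2 difference −1.59 ± 0.26 SE, limma adjusted p = 0.0487). CENPW, a protein of the inner kinetochore, had 76, 104 and 39 reads in vehicle and 16, 32 and 28 reads in OA (−1.54 ± 0.24 SE, limma adjusted p = 0.0438). SHCBP1, a protein of the spindle midzone, had 108, 150 and 44 reads in vehicle and 25, 42 and 40 reads in OA (−1.42 ± 0.24 SE, limma adjusted p = 0.0487). For all of these even the raw counts of OA lay below those of vehicle, the low-summit vehicle library included. The covered lengths of NEK2 (1240, 1220 and 739 bp against 794, 912 and 842 bp) overlapped.

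Of the 53 higher regions, 35 were promoters and 18 (34.0%) lay elsewhere, whereas 84.5% of constitutive regions were promoters. They were low in vehicle, with a median summit of 20.3 reads against 80 reads over all regions, and their log2 differences ran from 1.21 to 2.91. The largest was at CLGN, with 19, 10 and 6 reads in vehicle and 46, 105 and 113 reads in OA (2.91 ± 0.36 SE, limma adjusted p = 0.0386). VLDLR, the receptor for very low density lipoprotein, had 16, 14 and 8 reads in vehicle and 36, 79 and 125 reads in OA (2.48 ± 0.31 SE, limma adjusted p = 0.0386). ATP8B2 had 21, 28 and 10 reads against 55, 155 and 122 reads (2.43 ± 0.23 SE, limma adjusted p = 0.0247). Among the others were the promoters of the transcription factors MAF (14, 8 and 6 reads in vehicle, 39, 68 and 88 reads in OA) and RUNX1 (17, 13 and 6 reads against 25, 48 and 71 reads). ABCG1, a sterol exporter, had 12, 20 and 9 reads in vehicle and 25, 90 and 81 reads in OA. GABARAPL1, a homologue of yeast Atg8, had 38, 65 and 17 reads against 49, 146 and 111 reads, and BSN, a presynaptic scaffold protein, had 12, 15 and 8 reads against 27, 71 and 76 reads. These examples were chosen among the called promoters after their values were seen and stand for no pathway. In OA 1 the gain was small in reads, and 20 of the 53 regions had an OA 1 count no higher than their highest vehicle count. Of the 53, 26 were also longer in every OA library on both scales and 52 were ranked higher in every OA library. With any 1 OA library left out, or without vehicle 2, limma called 0 regions in either direction, while 362 were higher and 47 lower without vehicle 1, 111 higher and 9 lower without vehicle 3, and 134 higher and 28 lower without both low-summit libraries. Over all regions, the centred summit was higher in every OA library at 1542 (13.9%) and lower at 1231 (11.1%).

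The integrated stress response, in which phosphorylation of eIF2α leads to translation of the transcription factor ATF4 and to induction of its targets, held 3 of the wider promoters. Of 18 genes listed, 17 had constitutive promoters, and the 3 were longer in every OA library on both scales, against 339 of 9358 promoters in all. None was shorter as called. The pathway's median difference in log2 length was 0.29 as called and 0.13 after centring, against 0.13 and −0.03 for all promoters. Relative to all promoters of the same library, its median length was 0.26, 0.30 and 0.18 (log2) with vehicle and 0.02, 0.47 and 0.47 with OA, so the groups overlapped and OA 1 lay below every vehicle library. In rank, 2 promoters were higher and 2 lower in every OA library. PPP1R15A, the phosphatase subunit GADD34 that ends the response by dephosphorylating eIF2α (chr19:48872269-48875303), measured 1203, 1172 and 900 bp in vehicle and 1882, 2659 and 2801 bp in OA (log2 difference 1.16 ± 0.24 SE, limma adjusted p = 1.00). CHAC1, which degrades glutathione (chr15:40952515-40954639), measured 896, 1507 and 558 bp in vehicle and 1609, 1995 and 1972 bp in OA (log2 difference 1.02 ± 0.36 SE). VLDLR, a target of ATF4 (chr9:2621200-2623128), measured 700, 650 and 158 bp in vehicle and 1110, 1886 and 1929 bp in OA (log2 difference 1.94 ± 0.58 SE). The 3 promoters also had taller summits relative to their library in every OA library. ATF3 and ATF4, transcription factors of the response, differed from these: ATF3 overlapped at 1636, 972 and 481 bp in vehicle and 1065, 1126 and 3000 bp in OA, and ATF4 measured 1863, 1881 and 1582 bp in vehicle and 1152, 1431 and 1868 bp in OA, shorter in every OA library after centring.

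Cell cycle promoters were short for their library under OA. All 22 listed genes of the cell cycle and DNA replication had constitutive promoters, 7 were shorter in every OA library after centring (31.8%, against 9.75% of all promoters) and none was longer (7.15% of all), and 20 had a mean centred difference below 0, as did 5212 of all 9358 promoters. Their median length, relative to the median of all promoters of the same library, was 0.01, 0.05 and −0.01 (log2) in vehicle and −0.27, −0.18 and −0.24 in OA. The median height relative to all promoters went the same way, 0.12, 0.29 and −0.13 in vehicle and −0.38, −0.58 and −0.52 in OA, and neither measure overlapped between groups. The count of 7 was 10 without vehicle 3, 8 without OA 1 and 12 without both, while the share over all regions also rose, to 14.2%, 18.0% and 25.9%. As called, the median difference was −0.08 and turned positive without vehicle 1 (0.01), without vehicle 2 (0.10) or without OA 1 (0.05), while the centred median kept its sign. BIRC5, which encodes the chromosomal passenger protein survivin, measured 1052, 927 and 751 bp in vehicle and 643, 620 and 739 bp in OA, and its percentiles were 96.9, 94.4 and 64.2 against 46.4, 33.1 and 43.0. CCNA2, cyclin A2, measured 1750, 1797 and 1361 bp in vehicle and 935, 1184 and 1391 bp in OA, with 98, 245 and 66 reads against 32, 46 and 75 reads at the summit. PCNA, the sliding clamp of DNA polymerases (chr20:5118255-5120415), was an exception in rank: its length was 2023, 2012 and 1534 bp in vehicle and 1418, 1177 and 1268 bp in OA, but its percentile was higher in every OA library, at 81.9, 76.8 and 91.6 against vehicle values of 72.8, 64.3 and 59.6.

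The same direction was found in larger families taken by symbol after the values above were seen, which therefore are not independent of them. The cell cycle list above, like the other lists, was itself chosen with earlier results of these data known. Its shares are therefore a description and not a test. Of 42 constitutive promoters of replication factor families, 17 were shorter in every OA library after centring (40.5%, against 9.75% of all promoters) and 1, POLE4, was longer, with 37 below 0. GINS2, a subunit of the replicative helicase, measured 963, 961 and 408 bp in vehicle and 209, 284 and 624 bp in OA, and CDC45, which activates that helicase, measured 2872, 2578 and 1554 bp against 834, 1786 and 1800 bp. MCM10, which joins the helicase to polymerase α, measured 1067, 1135 and 757 bp against 365, 754 and 769 bp. These were shorter in every OA library after centring, although OA 3 was longer than vehicle 3 as called. Of 35 promoters of centromere, kinetochore and condensin families, 14 were shorter after centring (40.0%) and none longer. In rank, 10 were lower in every OA library (28.6%, against 7.79% of all promoters) and 3 were higher (8.57%, against 8.88%). SKA1, a microtubule-binding kinetochore protein, measured 901, 1412 and 878 bp in vehicle and 249, 830 and 857 bp in OA. SMC4, the ATPase of condensin, measured 2162, 2931 and 2288 bp against 1341, 1876 and 2030 bp, and both genes were shorter in every OA library as called as well.

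Ribosomal protein promoters had the lowest median difference in length of all lists examined, as called and after centring (−0.34). Of 82 genes of cytoplasmic ribosomal proteins, 75 had constitutive promoters, and 36 (48.0%) of these were shorter in every OA library after centring, against 9.75% of all promoters, with 1 longer. The mean difference after centring was below 0 in 72 of the 75. In vehicle these promoters were long, with medians of 1869, 1899 and 1077 bp and values of 0.48, 0.49 and 0.29 (log2) relative to all promoters of the library. In OA the medians were 1198, 1441 and 1537 bp and the relative values 0.09, 0.09 and 0.11. As called, 2 promoters of the 75 were shorter in every OA library, since vehicle 3 was short throughout, and the median difference was −0.18 against 0.13 for all promoters. The count of 36 was 54 without vehicle 3, 51 without OA 1 and 67 without both, beside the same rise over all regions. Over 55 of the promoters, the median downstream edge was at 1428, 1448 and 768 bp in vehicle and 957, 933 and 966 bp in OA, overlapping only through vehicle 3, and the upstream edge was at 263, 306 and 233 bp against 126, 360 and 427 bp. RPS18 measured 2489, 2404 and 1339 bp in vehicle and 1006, 1647 and 1468 bp in OA. RPL36A measured 1406, 1870 and 968 bp against 540, 1023 and 1179 bp, and RPS4X 1712, 1711 and 784 bp against 688, 975 and 986 bp. Rank was lower in every OA library at 4 of the 75 (5.33%, against 7.79% of all promoters) and higher at 1 (1.33%, against 8.88%), and the median difference in percentile was −2.48 points. The centred summit was lower in every OA library at 12 of the 75, against 1184 of all 9358 promoters (12.7%). Its mean difference was below 0 at 70 of the 75, against 5082 of all 9358 promoters. The median log2 difference in summit height was −0.45, against −0.05 for all promoters. Relative to all promoters of the same library, the median summit was 0.23, 0.65 and 0.85 (log2) in vehicle and 0.13, 0.43 and 0.08 in OA, so the groups overlapped. Ribosomal protein genes have many processed pseudogenes, and how reads matching several places were handled is not given in the sources used here.

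**Figure D5:**
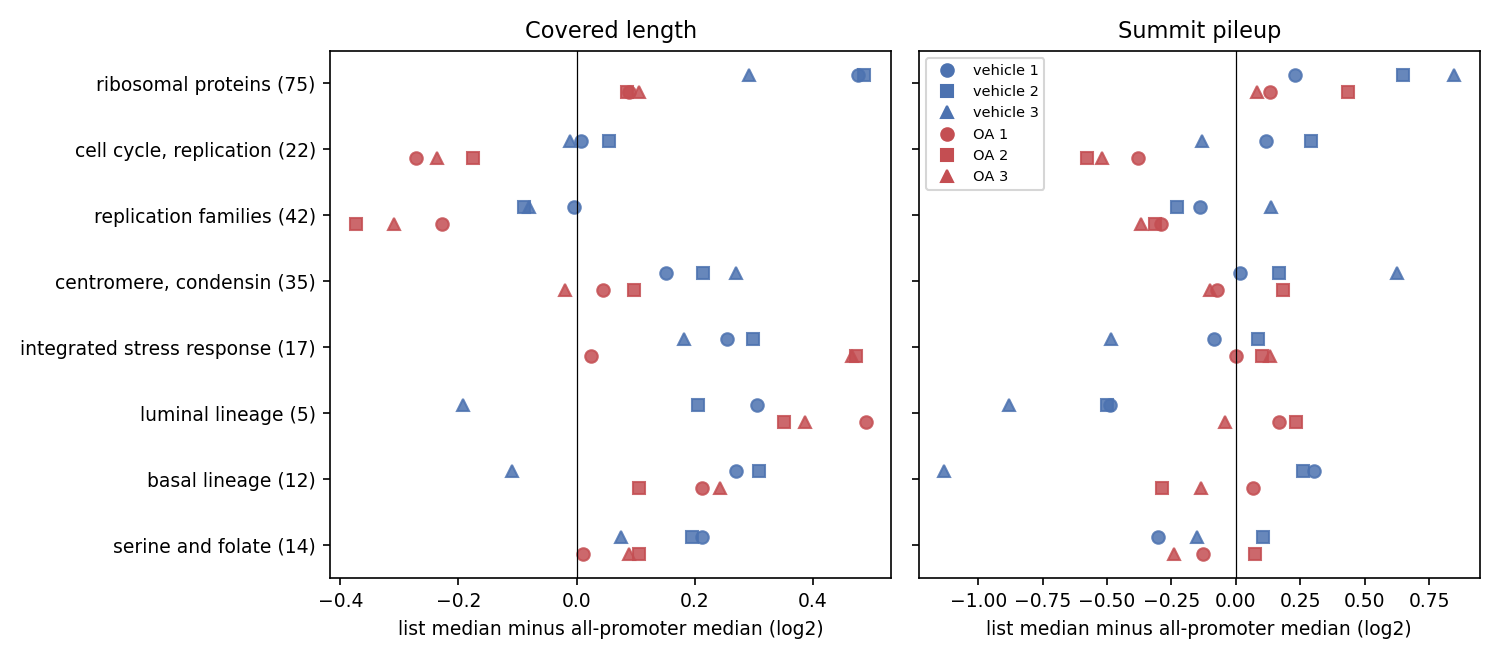
Median log2 covered length (left) and median log2 summit height in reads (right) of the promoters of each list, minus the median of all constitutive promoters of the same library, 1 symbol per library with vehicle in blue and OA in red, and the number of promoters in brackets. Ribosomal protein promoters sat at 0.29 to 0.49 in length in vehicle and at 0.09 to 0.11 in OA, and cell cycle promoters at −0.01 to 0.05 and −0.27 to −0.18.

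Metabolic and chromatin lists had few promoters separated in length, to be read beside the 9.75% of all promoters that were shorter and the 7.15% that were longer after centring. All 14 enzymes of serine synthesis and folate one-carbon metabolism had constitutive promoters, with 0 longer and 3 shorter (21.4%) after centring. Of 12 promoters of the methionine cycle, transsulfuration and glutathione synthesis, 0 were longer and 1 shorter after centring. In rank, 3 of these 12 were lower in every OA library (25%, against 7.79% of all promoters) and 2 were higher (16.7%, against 8.88%). Each other list of this paragraph had 0 to 2 promoters ranked higher and 1 to 2 ranked lower. All 17 listed H3K4 methyltransferases and demethylases had constitutive promoters, of which 0 were longer and 1 shorter after centring. Of 17 promoters of fatty acid oxidation and PPAR target genes, 3 were longer (17.6%) and none shorter after centring, among them PPARA, the fatty acid receptor, at 1457, 1017 and 334 bp in vehicle and 1382, 1539 and 1750 bp in OA. Of 18 promoters of sterol and fatty acid synthesis, 2 were shorter and none longer. INSIG1, the sterol sensor partner of the SREBP pathway, measured 2070, 1918 and 767 bp in vehicle and 1637, 2317 and 2313 bp in OA.

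Lineage and signalling lists gave mostly overlapping lengths. Of 12 basal lineage promoters, none separated in length or rank. Of 14 luminal lineage genes, 5 had constitutive promoters, and 4 of these were ranked higher in every OA library, against 8.88% of all promoters. KRT8, a luminal keratin, was at percentiles 57.2, 41.3 and 31.7 with vehicle and 77.7, 66.7 and 60.0 with OA, CD24, a surface glycoprotein of luminal cells, at 48.8, 38.9 and 36.1 against 67.7, 65.3 and 63.8, and GATA3, the luminal transcription factor, at 44.3, 41.0 and 46.4 against 81.0, 53.0 and 57.3. Their lengths overlapped as called, CD24 measuring 1805, 1563 and 213 bp in vehicle and 1711, 1732 and 2370 bp in OA. Of 14 AP-1 and immediate early promoters, 5 were ranked lower in every OA library (35.7%, against 7.79% of all promoters) and 1 higher, while JUN overlapped at 2717, 2148 and 948 bp in vehicle and 1902, 2122 and 3603 bp in OA. Of 12 promoters of genes of the epithelial-mesenchymal transition, 1 was longer after centring, and SMAD3, a mediator of TGF-β signals, overlapped at 1967, 1795 and 429 bp in vehicle and 1737, 1831 and 2110 bp in OA. Of 16 genes listed as neurotrophins and neural genes, not all of them named by the study, 5 had constitutive promoters. SORT1, the sortilin receptor, measured 754, 914 and 375 bp in vehicle and 1063, 929 and 1322 bp in OA, longer in every OA library. Of 12 oxidative stress promoters, 1 was longer on both scales. In rank, 4 of them were lower in every OA library (33.3%, against 7.79% of all promoters) and 2 were higher (16.7%, against 8.88%). Of 25 autophagy promoters, a list added after values were seen, 5 were longer after centring (20%, against 7.15% of all promoters). Another 2 were shorter (8%, against 9.75%). The centred summit difference was below 0 at 15 of the 25, against 5082 of all 9358 promoters. MAP1LC3A, a homologue of yeast Atg8, measured 532, 326 and 320 bp in vehicle and 755, 778 and 971 bp in OA.

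Other libraries of the series were read at the same promoters. Untreated MCF-10A cells, whose libraries took no part in choosing the regions, had a peak at 65.2 and 56.9% of the wider promoters in the 2 libraries, at 89.1 and 84.8% of the narrower ones, and at 89.2 and 82.6% of all constitutive promoters. H3K27me3, the mark of Polycomb repression, overlapped 16, 7 and 5 of the 339 wider promoters in the 3 vehicle libraries (4.72, 2.06 and 1.47%) and 14, 6 and 2 in the OA libraries, while over all 9358 promoters the numbers were 42, 32 and 25 with vehicle and 129, 19 and 4 in OA. Of the 46 narrower promoters, 0 overlapped it in any vehicle library and 1 (2.17%) in OA 1. ATF3, which was not among the wider promoters, overlapped H3K27me3 in 3 vehicle libraries and 1 OA library. The wider promoters VLDLR and MAF each overlapped it in 2 vehicle libraries and no OA library. Other wider promoters went the opposite way. NRG2 overlapped it in 1 vehicle and 2 OA libraries, and CCDC69, SLC43A1 and PDGFD each in no vehicle library and 1 OA library. Whether these shares differed between the classes was not tested, nor was the part of length in them. When the constitutive regions were divided by mean length into 5 bins of equal size, the shortest bin held 164 wider and 14 narrower regions and the longest held 20 and 5. Constitutive regions away from promoters were longer in every OA library after centring at 172 of 1713 (10.04%) and shorter at 62 (3.62%), against 7.15 and 9.75% of promoters. An IgG peak lay over 254 of these 1713 regions and over 119 of the promoters.

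Sequence composition differed little between wider promoters and all promoters. RefSeq windows of 300 bases around the start were matched for 8581 of the 10604 genes, and the median number of CG dinucleotides was 27 in wider promoters, 23.5 in narrower ones and 27 in all. The CCAAT box, searched as CCAAT on both strands of the 250 bases 5′ of the start, was present in 98 of 290 wider promoters (33.8%), 16 of 38 narrower ones (42.1%) and 36.9% of all constitutive promoters, and in 33.0% of all RefSeq windows. It was present in 14 of 18 cell cycle promoters (77.8%), as in the NEK2, CENPW and SHCBP1 sequences printed above, in 22 of 36 replication family promoters (61.1%) and in 15 of 61 ribosomal protein promoters (24.6%). Other lists held it about as often: 9 of 13 sterol and fatty acid synthesis promoters (69.2%), 6 of 9 serine and folate promoters (66.7%) and 9 of 16 stress response promoters (56.25%). The E2F-type elements TTTGGCGC and TTTCCCGC, counted together, were present in 7 of 18 cell cycle promoters (38.9%) and in 3.51% of all constitutive promoters. They were in 11 of 36 replication family promoters (30.6%), but in 1 of 30 centromere, kinetochore and condensin promoters (3.33%) and 1 of 38 narrower promoters (2.63%). The ATF4-type element TGATGNAA was present in 3 of 16 stress response promoters (18.8%), CHAC1 among them, in 3 of 290 wider promoters (1.03%) and in 1.18% of all constitutive promoters. These matches describe the letters of the windows and were not related to the lengths by a test.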

How the data were processed

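H3K4me3 was profiled by CUT&RUN in MCF-10A cells. The authors deposited 1 peak list per library, called on each library alone with MACS2 2.2.7.1 on hg38 (tools and build per the labels). The aligner, duplicate handling and control library are not given in the sources used here. Each deposited peak carries a fold enrichment (a ratio to the local background), a −log10 p-value and a −log10 q-value, with q up to about 0.01, and no read counts. The deposited H3K27me3 broad peaks were used only for overlap, by position, and their fold enrichment and −log10 p-values were not compared.

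Peaks on the main chromosomes of the 6 libraries were merged where they shared 1 bp. Covered length was the bases under peaks in a region. Rank was the percentile, within its library, of the highest −log10 p. Summit height in reads was solved from the deposited fold enrichment and Poisson −log10 p, and 100% of peaks in each library gave a whole count within 0.1%. Start sites were the canonical ones of GENCODE release 44, and a promoter region lay within 1 kb of a protein-coding start. limma 3.58.1 (R 4.3.3) compared log2 length, percentile and centred log2 summit height between 3 OA and 3 vehicle libraries, with Benjamini-Hochberg adjustment over all 11071 regions and a threshold of 0.05. The count-based test of the study needs reads and was not run. Library medians were compared by two-sided exact permutation tests in Python 3.11.15 (scipy 1.17.1). The fitting steps were tested on simulated data.

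Peak widths grow with depth, so they were compared as called and centred on the library median. Genes were named by a rule: the 10 wider and 10 narrower promoters with the largest ratio between the nearest OA and vehicle lengths, the 5 higher and 5 lower with the largest gap in percentile, members of pathway lists with the largest differences, and promoters called on summit height. Other gene lists were added after values were seen and are named as such. The members and lists were chosen with earlier results of these data known. Alternatives were the same number of top peaks per library (16086), a q-value of at most 1e-05, peaks within 500 bp joined, span in place of covered bases, quantile normalization, limma with trend, the replicate number as a block, fold enrichment in place of −log10 p, and libraries left out. Some genes are not reported here.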

Additional observations from a re-analysis of the deposited data

How the results depend on the processing

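Read depth, which is unknown, limits every length. The limma counts for length stayed at 0 in OA-longer and OA-shorter regions except after centring with a library left out, where 0 to 2 regions were longer, 2 of them without vehicle 1. For rank, limma with trend called 6 regions higher, and summit height in place of rank called 53 higher and 3 lower. For summit height, the replicate block gave 0 and 0, leaving out regions over an IgG peak 195 higher and 25 lower, quantile normalization 44 lower, trend 9 lower, leaving out a library 0 to 362 higher and 0 to 47 lower, and leaving out vehicle 3 and OA 1 together 134 and 28. Regions longer in every OA library numbered 752 to 3187 with a library left out and 3207 with both low-summit ones left out, and shorter ones 974 after centring, 77 to 1721 with a library left out and 1850 with both. The balance of rank turned by fold enrichment (595 higher, 1071 lower) and with equal numbers of top peaks (950 higher, 1112 lower). Regions ranked higher numbered 1243 to 2475 with a library left out, most without vehicle 1, and 2420 with both, and ranked lower 1102 to 1557 and 1843. Wider promoters numbered 405 to 1132 with a library left out and 1820 with both, and narrower ones 51 to 1022 and 1650. Fewer libraries give fewer conditions to meet, so larger counts follow in part by construction. The difference in median length ran from −40 to 203 bp with a library left out and was 48.5 bp with both left out. The downstream edge ran from −49.3 to 113 bp and was −15 bp with both left out, and the upstream edge ran from 16.2 to 102 bp. Centring gives no library median of its own, being 0 by construction. Among 97 results for named promoters, 1539 of 1759 alternatives kept direction and side of the threshold and 213 lost a call, and 2 turned. All 213 losses fell on the promoters called on summit height, 35 higher and 3 lower. The length and rank results had no call to lose, so the pooled share says little about how stable the calls were. With a library left out, the log2 length difference of GATA3 ran from −0.042 (without vehicle 3) to 0.90, and that of AURKB from −0.72 to 0.027 (without OA 1). The replicate numbers were checked for pairing: deviations of same-numbered libraries correlated at 0.0449, 0.157 and −0.232 for length and at 0.186, 0.194 and −0.151 for rank. So few correlations cannot decide whether the numbers pair the libraries. The block left the calls for length and rank at 0, but took those for summit height from 53 and 3 to 0 and 0.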

Other observations

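Promoters that the study singled out for H3K4me3 were not among the constitutive regions, since at each of them some library had no called peak. At NGFR, the low-affinity neurotrophin receptor, peaks within 1 kb of the start covered 191, 0 and 0 bp in vehicle and 1253, 1539 and 1820 bp in OA. At PARM1, a membrane mucin-like protein, they covered 302, 219 and 0 bp in vehicle and 1148, 1406 and 1631 bp in OA. MDK, the growth factor midkine, had 0, 0 and 170 bp in vehicle and 458, 1137 and 1227 bp in OA. AGR2, a disulfide isomerase, had no peak in vehicle and 0, 1048 and 895 bp in OA. NTRK2, the receptor for brain-derived neurotrophic factor, had 240, 0 and 171 bp in vehicle and 0, 0 and 1682 bp in OA, and PDGFRA had no peak in any library. These genes were known from the study before they were looked up, and a listed length of 0 says only that no peak was called.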
